A study of Mus musculus with 12 samples.

Results

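The 10 genes described here code for apolipoproteins that the liver secretes, and they were taken by symbol from a table of read counts of mouse liver that holds 54838 genes: *Apoa1*, *Apoa2*, *Apoa4*, *Apoa5*, *Apob*, *Apoc1*, *Apoc2*, *Apoc3*, *Apoe* and *Apom*. All 10 rows were found. Livers came from 12 female C57BL/6J mice, 8 to 14 weeks old, in 4 groups of 3. For 7 days the drinking water was plain or held 25 mM ZnSO4. PBS alone or 200 µg dexamethasone (Dex, as Rapidexon) in PBS was then injected intraperitoneally, and the liver was taken 2 h later. The groups are called water-PBS (the control), zinc-PBS, water-Dex and zinc-Dex. All mice were wild type and all received an injection. Dex is a synthetic agonist of the glucocorticoid receptor (GR). The study asked whether zinc acts through this receptor, so the comparisons are of Dex against PBS on each water, of zinc against water under each injection, and of the interaction, meaning the difference between the Dex effects on the 2 waters.

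Apolipoproteins are the protein coat of lipoproteins, the particles that carry triglyceride and cholesterol in blood. APOB is the scaffold of very low density lipoprotein (VLDL), APOA1 and APOA2 are the main proteins of high density lipoprotein (HDL), and APOE is a ligand for the receptors that return particle remnants to the liver. The smaller APOC proteins and APOA5 act on lipoprotein lipase, the enzyme that frees fatty acids from circulating triglyceride: APOC2 is its activator, APOC1 and APOC3 hold it back, and APOA5 promotes triglyceride clearance.

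The libraries held 9091152 to 12303527 counts, of which the 10 genes took 3.39 to 3.96%. Read counts are given after division by the DESeq2 size factor of the library and are called normalized read counts. Fold changes are log2 fold changes (LFC) of DESeq2 with their standard error (SE), and a gene is said to have changed at a Benjamini-Hochberg adjusted p under 0.05 over all genes tested. Markers of liver cell types were present, among them hepatocyte *Alb* with a mean of 1188906 normalized read counts. Each library is 1 mouse of 3 biological replicates, as the labels give it. In bulk tissue fewer cells of a type and less RNA per cell cannot be told apart. For 3 against 3 libraries the smallest p of an exact permutation test is 0.1, so the tests of these genes use the spread that the fit shares over all genes.

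Dex moved the apolipoprotein genes in different directions within 2 h. In normalized read counts averaged over both waters, 6 Dex mice were compared with 6 PBS mice. *Apoa1*, *Apoa2*, *Apoa4* and *Apoc3* rose and *Apoa5* fell, while *Apob*, *Apoc1*, *Apoc2*, *Apoe* and *Apom* did not pass the test. That is 5 of 10 genes changed, 4 higher and 1 lower, where 28.8% of the 17045 genes tested changed, 14.7% higher and 14.2% lower. The median LFC of the 9 genes other than *Apoc2* was 0.09, and that of all genes tested was -0.02. The directions of *Apoa2* and *Apoc3* depended on how the libraries were scaled, as given below with the levels per exon length. At the study's added threshold of an absolute LFC above 0.8, which 10.3% of genes passed, *Apoa5* was the 1 gene left of the 10. With zinc, averaged over both injections, *Apoa4* was the 1 gene of 9 tested that changed, and it was lower, where 2.29% of genes changed and 0.755% were lower. It did not reach an absolute LFC of 0.8, which 0.331% of genes did.

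**Figure D1:**
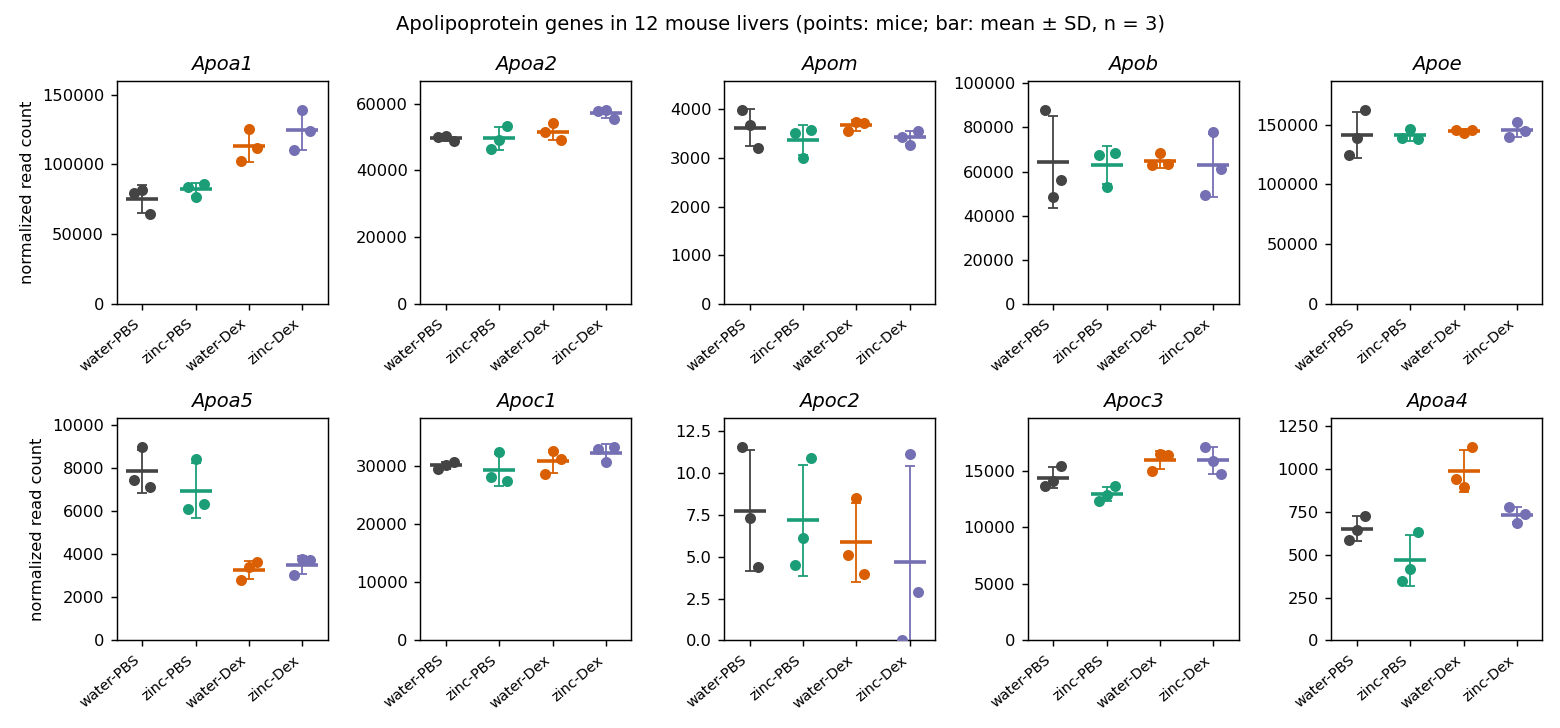
Normalized read count of each apolipoprotein gene (vertical axis, from 0, scaled to each gene) in the 4 groups (horizontal axis). Points are single mice, wide bars the mean and thin bars the SD over 3 mice. The 6 Dex-injected mice lie above all 6 PBS-injected mice for *Apoa1* and below all of them for *Apoa5*.

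*Apoa5* made the largest change of the 10 genes on the log scale. In the GENCODE M21 annotation of GRCm38 (mm10) its gene lies on chromosome 9 from 46268633 to 46271919, plus strand, and its longest annotated transcript has 4 exons. The bases before its start are shown because it was the member that fell, next to 3 genes of the same cluster that rose. They come from the RefSeq promoter table of GRCm38.p6, chr9:46268383-46268632, plus strand, 5′ to 3′, with a match to TATAAA in capitals that begins 56 bases before the start.
Apoa5: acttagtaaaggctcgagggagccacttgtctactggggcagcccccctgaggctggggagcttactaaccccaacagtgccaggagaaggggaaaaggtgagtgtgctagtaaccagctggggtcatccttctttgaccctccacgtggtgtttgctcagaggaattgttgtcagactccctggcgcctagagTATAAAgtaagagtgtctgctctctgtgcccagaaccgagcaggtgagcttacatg
Neither strand of the *Apoa5* window held AGAACA, an arm of the GR binding element, which 16.1% of the 32851 promoters of the table hold. A match or its absence in this window describes letters and says nothing about binding.

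In water-PBS mice the normalized read count of *Apoa5* was 7476, 9000 and 7121. In zinc-PBS mice it was 6128, 8421 and 6334. Water-Dex mice had 2828, 3395 and 3632, and zinc-Dex mice 3038, 3790 and 3731. The highest Dex-injected mouse was therefore below the lowest PBS-injected mouse on either water, a separation that 17.5% of genes tested showed in one direction or the other. Averaged over both waters the LFC was -1.12 (SE 0.10, DESeq2 adjusted p = 1.7e-25), which puts PBS mice 2.18-fold higher (95% interval 1.89 to 2.51). On plain water the LFC was -1.26 (SE 0.15, adjusted p = 5.2e-16), and on zinc water it was -0.98 (SE 0.15, adjusted p = 6.3e-10). The difference between these Dex effects, 0.28 with a 95% interval from -0.13 to 0.68, did not pass the interaction test (adjusted p = 0.999). *Apoa5* shares 524 exonic bases with the antisense gene *Gm47544*, which had 0 counts in every library.

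*Apoc3*, whose product slows lipase action and remnant uptake, moved the other way and by less. Its normalized read count was 13655, 14099 and 15420 in water-PBS mice and 12342, 12895 and 13643 in zinc-PBS mice. In water-Dex mice it was 15027, 16499 and 16420, and in zinc-Dex mice it was 17142, 15898 and 14770. Dex and PBS mice overlapped on plain water and did not overlap on zinc water, where the zinc-PBS mice were low. Groups were apart on zinc water for 38.3% of genes tested. The mean Dex effect was an LFC of 0.22 (SE 0.06, DESeq2 adjusted p = 0.00070). On zinc water the LFC was 0.30 (SE 0.08, adjusted p = 0.0024), and on plain water 0.15 (SE 0.08, adjusted p = 0.19). The interaction, 0.15 (95% interval -0.08 to 0.37), did not pass the test, so a difference between the waters was not shown.

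*Apoc1*, an inhibitor of lipase and of receptor uptake, stayed between 27359 and 33336 normalized read counts in all 12 mice. Its mean Dex LFC was 0.09 (95% interval -0.03 to 0.20, DESeq2 adjusted p = 0.29). Leaving out zinc-PBS replicate 2, which at 32456 was the highest of its group, the Dex effect on zinc water passed the test with an LFC of 0.22 (adjusted p = 0.039).

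*Apoc2* could not be read in this table. It had 4 to 11 raw counts in water-PBS, 5 to 12 in zinc-PBS, 4 to 8 in water-Dex and 0 to 10 in zinc-Dex mice. Of its 813 exonic bases, 646 are shared with *Gm44805*, a protein-coding gene annotated on the same strand, which had 0 counts in every library. Whether reads over the shared bases were dropped in counting was not tested, and its level in these livers is not known from these counts. Its neighbour *Apoc4*, whose gene ends 141 bases away, had 4098 to 5108 raw counts.

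In normalized read counts of the HDL proteins, *Apoa1* rose and *Apoa2* rose by less. *Apoa1* codes for the main structural protein of HDL, which also activates cholesterol esterification in the particle. It lies on chromosome 9 from 46228580 to 46230466, plus strand, in the same cluster as *Apoa5*. The 200 bases before the gene, chr9:46228380-46228579 of GRCm38.p6 on the plus strand, are shown for comparison with *Apoa5*, and have no capitals because none of the motifs searched was found in them.
Apoa1: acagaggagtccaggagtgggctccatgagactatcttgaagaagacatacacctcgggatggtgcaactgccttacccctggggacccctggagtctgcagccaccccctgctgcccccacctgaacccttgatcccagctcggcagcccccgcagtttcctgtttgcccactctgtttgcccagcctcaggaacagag
Both strands of the 250 bases before the RefSeq start were searched for 5 motifs, in these genes and in all promoters of the table. The full GR element joins the arm given above and its reverse complement with 3 bases between them, overlaps with that arm by construction, and was in 0.00913% of the promoters. The TATA box TATAAA was in 12.4% of them. The GC box, whose letters are GGGCGG, was in 32.7%. The site of many nuclear receptors, AGGTCA, was in 14%. None of the 8 members in the promoter table held the full GR element.

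The normalized read count of *Apoa1* was 79548, 81918 and 64025 in water-PBS mice and 83608, 76759 and 85992 in zinc-PBS mice. It was 102471, 125384 and 111596 in water-Dex mice and 110429, 138937 and 123630 in zinc-Dex mice. No Dex-injected mouse overlapped a PBS-injected mouse on either water, a separation that 17.5% of genes tested showed in one direction or the other. The mean Dex effect was an LFC of 0.59 (SE 0.08, DESeq2 adjusted p = 2.9e-11), or 1.51-fold (95% interval 1.35 to 1.69). It was 0.59 (SE 0.12) on plain water and 0.60 (SE 0.12) on zinc water, with an interaction of 0.01 (95% interval -0.32 to 0.34). The summed count of 16 secreted hepatocyte proteins was 1548244 to 1826971 in PBS mice and 1945681 to 2115393 in Dex mice. Most of each sum was *Alb*, with means of 1059940 in water-PBS, 1075148 in zinc-PBS, 1305427 in water-Dex and 1315108 in zinc-Dex mice. Of the 16 genes 7 rose with Dex, and the median LFC was 0.09. The part of this in the *Apoa1* result was not tested.

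*Apoa2*, the second HDL protein, was steady between mice. It gave 49880, 50303 and 48713 normalized read counts in water-PBS, and 46544, 49024 and 53193 in zinc-PBS mice. Water-Dex mice had 51511, 54163 and 49209, and zinc-Dex mice had 57784, 58106 and 55495. The 3 zinc-Dex mice were above the 9 others, and the share of all genes apart in this way was not counted. By pairs, 38.3% of genes tested had zinc-Dex apart from zinc-PBS mice, and 20.2% had zinc-Dex apart from water-Dex mice. The LFC was 0.20 (SE 0.07, DESeq2 adjusted p = 0.015) for zinc-Dex against zinc-PBS and 0.06 (SE 0.07, adjusted p = 0.62) on plain water. The mean Dex effect was 0.13 (SE 0.05, adjusted p = 0.023), and the interaction of 0.15 (95% interval -0.04 to 0.33) did not pass the test. The calls of *Apoa2* depended on the fit: edgeR gave adjusted p = 0.089 for the mean Dex effect, and leaving out any of 9 of the 12 libraries also ended that call. Those were water-PBS replicates 1, 2 and 3, zinc-PBS replicates 1 and 2, water-Dex replicates 1 and 2, and zinc-Dex replicates 1 and 2, with adjusted p between 0.053 and 0.099.

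*Apom*, which carries sphingosine-1-phosphate on HDL, stayed between 3006 and 3985 normalized read counts. Its mean Dex LFC was 0.02 (95% interval -0.11 to 0.15, DESeq2 adjusted p = 0.87) and its mean zinc LFC was -0.10 (95% interval -0.24 to 0.03).

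*Apoa4* codes for a protein best known from the intestine and from livers loaded with triglyceride. It lies between *Apoc3* and *Apoa5* on chromosome 9, from 46240696 to 46243459 on the plus strand. The 102 bases before the annotated gene, chr9:46240594-46240695 of GRCm38.p6 on the plus strand, are shown because they hold TGTTCT, the reverse complement of AGAACA, in capitals. It begins 192 bases before the RefSeq start, which lies 148 bases inside the annotated gene.
Apoa4: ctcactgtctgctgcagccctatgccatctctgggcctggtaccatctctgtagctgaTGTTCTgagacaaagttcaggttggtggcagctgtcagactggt
A second match in the RefSeq window, at 110 bases before that start, falls inside the annotated gene.

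*Apoa4* was the 1 member that changed with both treatments, higher with Dex and lower with zinc. Its normalized read count was 587, 644 and 727 in water-PBS mice and 346, 420 and 635 in zinc-PBS mice. In water-Dex mice it was 940, 897 and 1130, and in zinc-Dex mice 777, 688 and 735. Dex mice lay above the PBS mice on the same water without overlap. In either direction, groups were apart for 39.2% of genes tested on plain water and 38.3% on zinc water. The mean Dex effect was an LFC of 0.63 (SE 0.13, DESeq2 adjusted p = 9.3e-06), with 0.60 (SE 0.18, adjusted p = 0.0062) on plain water and 0.65 (SE 0.18, adjusted p = 0.0028) on zinc water. The call on plain water was lost without water-Dex replicate 3, the highest mouse (LFC 0.49, adjusted p = 0.076).

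The mean zinc effect on *Apoa4* was an LFC of -0.46 (SE 0.13, DESeq2 adjusted p = 0.023), made of -0.48 (SE 0.18, adjusted p = 0.46) between PBS mice and -0.43 (SE 0.18, adjusted p = 0.30) between Dex mice. With PBS, 1 of the 3 zinc mice lay within the range of the water mice. With Dex, all 3 zinc mice were below the 3 water mice, and 20.2% of genes tested had groups apart in this way in one direction or the other. The mean effect was at adjusted p = 0.089 in edgeR. It did not pass without water-PBS replicate 3, zinc-PBS replicate 1, zinc-PBS replicate 2, water-Dex replicate 3 or zinc-Dex replicate 3, where adjusted p lay between 0.051 and 0.12. Without zinc-PBS replicate 3 the effect between PBS mice passed at an LFC of -0.77 (adjusted p = 0.00021).

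Markers of gut epithelium were read in the library lowest for *Apoa4*, zinc-PBS replicate 1. Of the 9 gut markers, *Fabp2* alone averaged 50 normalized read counts or more, and at 573 it was the lowest of the 6 PBS mice there. *Reg3g* (94.8), *Vil1* (25.3), *Sis* (14.4), *Cdh17* (13.5) and *Alpi* (4.5), named after their values were seen, were the highest of the 12 mice there. *Muc2* (3.6) lay within the range of the mice on plain water, *Cdx2* was at 0.9 and *Lct* at 0. The summed list ran from 599 to 758 in water-PBS, 645 to 794 in zinc-PBS, 528 to 685 in water-Dex and 542 to 676 in zinc-Dex mice. Their part in the *Apoa4* result was not tested. Antisense to *Apoa4*, *Gm47528* shares 634 exonic bases and had 0 to 3 raw counts in PBS mice and 2 to 10 in Dex mice, and *Gm10680* had 0.

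*Apob*, the scaffold of VLDL, did not differ between groups beyond the spread between mice. Its normalized read count was 87900, 48399 and 56354 in water-PBS, and 67290, 53093 and 68394 in zinc-PBS mice. Water-Dex mice had 62802, 68277 and 63397, and zinc-Dex mice had 49371, 78082 and 60989. The mean Dex LFC was 0.01 with a 95% interval from -0.27 to 0.28 (DESeq2 adjusted p = 0.98), the widest interval of the genes other than *Apoc2*. The water-PBS mice spread by 32.5% of their mean and the water-Dex mice by 4.6%. *Apob* has the longest transcript of the 10, 13934 bases in 29 exons. In water-PBS replicate 1, where it stood 0.49 above its own mean on the log2 scale, the median of the 241 genes with a transcript of 10 kb or more stood at 0.14 and that of all 9574 genes at -0.01. In water-PBS replicate 2 the values were -0.38, -0.16 and -0.01. RNA quality was not measured in these files and its part was not tested.

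*Apoe*, the remnant receptor ligand, held the most reads of the 10 and stayed between 124211 and 162258 normalized read counts. Both ends of this range were water-PBS mice, at 124211 and 162258 with 138689 between them, while the 3 water-Dex mice lay from 143362 to 145576. Its mean Dex LFC was 0.04 (95% interval -0.09 to 0.16, DESeq2 adjusted p = 0.73) and its mean zinc LFC was 0.00 (95% interval -0.13 to 0.13).

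**Figure D2:**
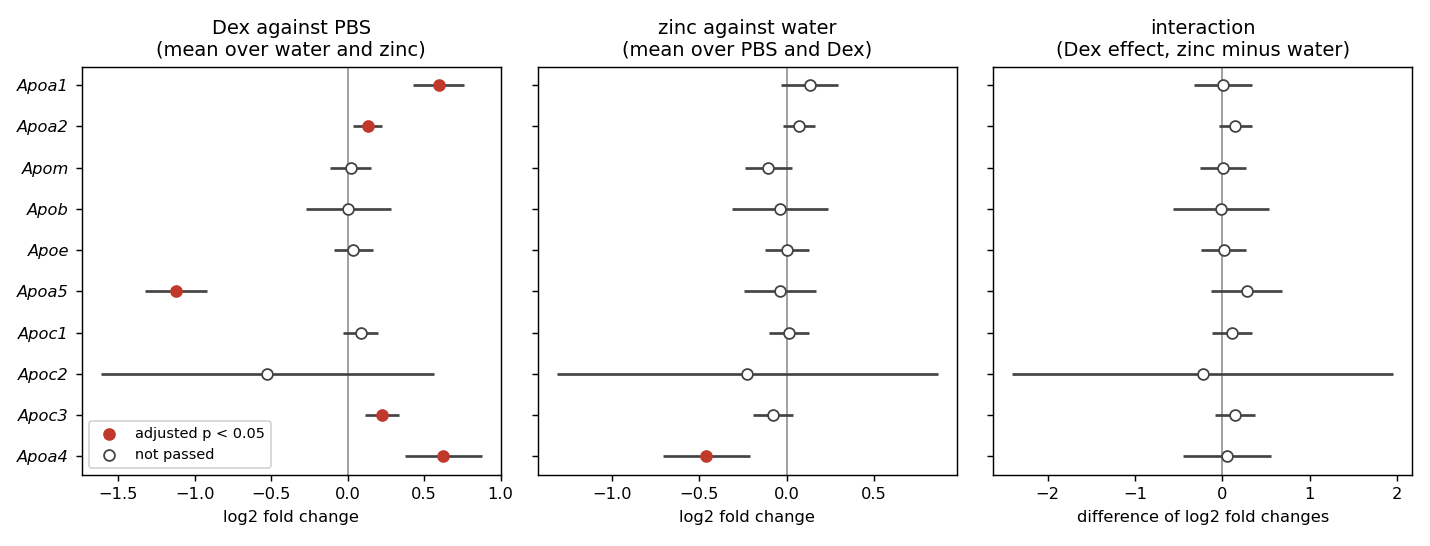
DESeq2 log2 fold change of each gene (points) with its 95% interval (lines) for the mean Dex effect, the mean zinc effect and their interaction. Filled points passed at an adjusted p under 0.05, and *Apoa4* is the 1 gene filled in both of the first panels, at 0.63 for Dex and -0.46 for zinc.

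The comparisons within each group pair, which share libraries with one another, gave the following counts of changed members. For water-Dex against water-PBS 3 of 10 changed (*Apoa1*, *Apoa4* and *Apoa5*), where 22% of genes did, and the same 3 had groups that did not overlap, where 39.2% of genes had. For zinc-Dex against zinc-PBS 5 of 10 changed (those 3, *Apoa2* and *Apoc3*), where 20.3% of genes did, and the same 5 had groups that did not overlap, where 38.3% of genes had. For zinc-Dex against water-PBS 3 of 10 changed, with *Apoa1* at 0.73, *Apoa2* at 0.20 and *Apoa5* at -1.16, where 23.8% of genes did. The *Apoa2* call in this comparison was lost in edgeR (adjusted p = 0.075), with the libraries compared alone (0.088), and without water-PBS replicate 1, 2 or 3 or zinc-Dex replicate 1 or 2 (0.051 to 0.077). Its call for zinc-Dex against zinc-PBS was lost in edgeR (0.079), with the libraries compared alone (0.12), and without zinc-PBS replicate 1 or 2 or zinc-Dex replicate 1 or 2 (0.072 to 0.11). With an absolute LFC above 0.8, *Apoa5* was the 1 member left in each of these 3 comparisons, where, in the order given, 9.79%, 9.75% and 11% of genes were. For zinc-Dex against water-PBS, *Apoa4* was at 0.17 (SE 0.18, DESeq2 adjusted p = 0.58), and the groups overlapped.

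Zinc alone gave no call in DESeq2 among the 9 members tested between PBS mice, where 0.351% of genes changed. At an unadjusted p under 0.05 there was 1 member (*Apoa4*), where 5.85% of genes tested were. *Apoc3* was the 1 member whose groups did not overlap there, with zinc mice lower at an LFC of -0.15 (SE 0.08, adjusted p = 0.89), where 12% of genes had groups apart. Between Dex mice DESeq2 also gave 0 calls of 9, where 1.39% of genes changed. Here *Apoa2* and *Apoa4* had an unadjusted p under 0.05, 2 of 9, where 10.3% of genes tested did. The interaction gave 0 calls of 10 and 0 members at an unadjusted p under 0.05, where 0.0229% of genes changed and 1.99% had such a p. edgeR gave 0 calls in each of these 3 comparisons. The 95% intervals of the mean zinc effect lay within -0.24 and 0.30 for *Apoa1*, *Apoa2*, *Apoc1*, *Apoc3*, *Apoe*, *Apom* and *Apoa5*.

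Levels were compared between genes per exon length, as TPM, the read count divided by exon length and scaled to the same total in every library. The order of the medians over 12 mice was *Apoa2*, *Apoa1*, *Apoe*, *Apoc1*, *Apoc3*, *Apob*, *Apom*, *Apoa5*, *Apoa4* and *Apoc2*. *Apoa2* had 19784 to 23658 TPM and ranked 5 among all genes. *Apoa1* had 12735 to 22728 and *Apoe* 13342 to 18658. In water-PBS mice the ranges of *Apoa1* and *Apoe*, of *Apob* and *Apom*, and of *Apom* and *Apoa5* overlapped, so these neighbours were not separated. The other neighbours were apart in that group. *Apoc1* had 8151 to 10747 TPM, *Apoc3* 2904 to 3739, *Apob* 722 to 1504 and *Apom* 654 to 938. *Apoa5* reached from 237 to 849 TPM and *Apoa4* from 45.4 to 134. In TPM the mean of *Apoa2* was lower with Dex, from 22247 to 20341 on plain water and from 22276 to 21814 on zinc water. *Apoc3* went from 3419 to 3337 on plain water and from 3083 to 3221 on zinc water. The rise of *Apoa2*, and that of *Apoc3* on plain water, thus held for normalized read counts and not for TPM. *Apoa1*, *Apoa4* and *Apoa5* kept their direction in TPM on both waters. Dividing by the longest transcript in place of all exonic bases brought the means of *Apoe* (19101 TPM) and *Apoa2* (18772 TPM) close together. The order above is of medians, and which of these genes is first by the longest transcript was not settled.

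The opposite moves of *Apoa1* and *Apoa5* changed their ratio. Per length, *Apoa1* had 18.3 to 21.7 times the TPM of *Apoa5* in water-PBS mice and 18.6 to 27.8 times in zinc-PBS mice. The ratio was 62.7 to 75.4 in water-Dex and 67.6 to 74.8 in zinc-Dex mice, apart from all PBS mice. The share of counts taken by the 10 genes together differed little between groups, with means of 3.79 ± 0.11% in water-PBS, 3.77 ± 0.08% in zinc-PBS, 3.66 ± 0.12% in water-Dex and 3.69 ± 0.29% in zinc-Dex mice (SD, n = 3).

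**Figure D3:**
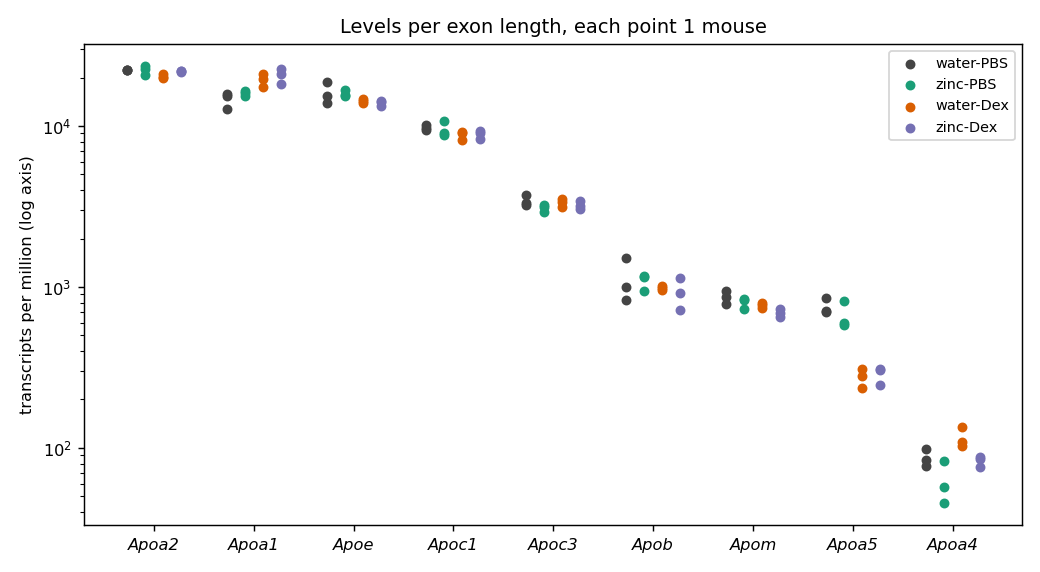
Level per exon length (TPM) of 9 genes (vertical log axis, each point 1 mouse, colours the 4 groups), ordered by median. *Apoc2* is left out because its counts could not be read, and *Apoa5* is the gene whose Dex points, at 237 to 311 TPM, lie farthest below its PBS points.

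The genes with the pattern most like *Apoa5* over the 12 libraries were *Cda* (Pearson r = 0.971), *Nmrk1* (0.962) and *Arhgap29* (0.960), among the 9574 genes that averaged 50 normalized read counts or more. All 3 fell with Dex, with LFCs of -2.24, -1.36 and -1.71. For *Apoa4* they were *Ppfia1* (0.937), *Ppp4r1* (0.905) and *Rundc3a* (0.905), with Dex LFCs of 0.35, 0.33 and 0.30. The libraries are shared by both genes of a pair and fall into Dex and PBS mice, so these values describe likeness and carry no test.

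Of the 10 genes, 4 lie in 1 cluster on chromosome 9 and 3 in another on chromosome 7. On chromosome 9 the order is *Apoa1*, *Apoc3*, *Apoa4* and *Apoa5*, with 2466, 5059 and 25173 bases between them. All 4 changed with Dex, 3 up and 1 down, where 28.8% of genes tested changed. On one side, *Sik3*, a kinase gene of the salt-inducible family, rose by an LFC of 0.84 (SE 0.09, DESeq2 adjusted p = 4.2e-20). On the other side, *Zpr1* did not pass the test at -0.10 (SE 0.09, adjusted p = 0.48). On chromosome 7 none of *Apoc2*, *Apoc1* and *Apoe* changed. Of the 8 neighbours within 100 kb there, *Nectin2* (-0.59) and *Cblc* (-0.37) fell, *Clptm1* (0.14) rose, and *Apoc4* was at 0.07 (adjusted p = 0.47). For these genes of chromosome 7 the share to compare is the same 28.8%. With zinc, 0 of the 10 neighbours of both clusters changed in DESeq2, where 2.29% of genes tested did. *Apoa2*, *Apob* and *Apom* lie alone on chromosomes 1, 12 and 17.

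**Figure D4:**
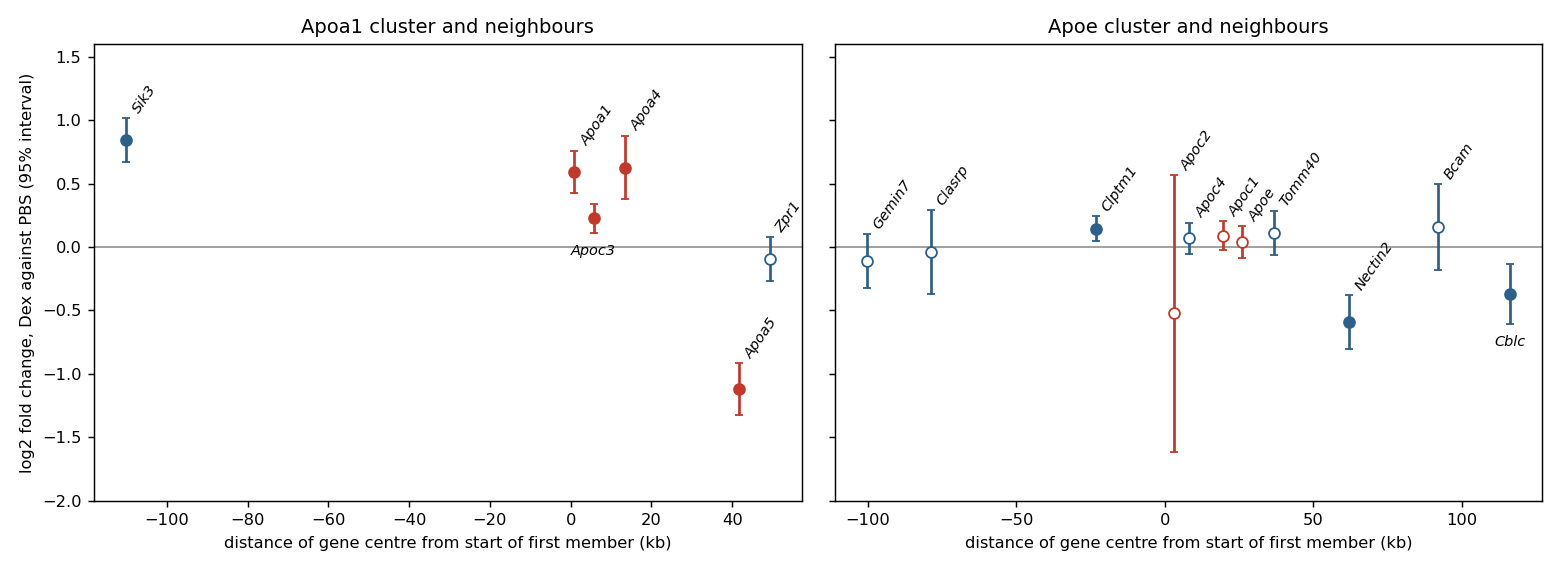
Mean Dex log2 fold change with its 95% interval against the distance of the gene's centre from the start of the first cluster gene (kb), for the chromosome 9 cluster (left) and the chromosome 7 cluster (right). Apolipoprotein genes described here are red, neighbours blue, and filled points passed at an adjusted p under 0.05. In the left panel *Apoa5*, at -1.12, lies below the 3 other members, which are all above 0.

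Other genes of lipoprotein metabolism were described by list, against a background of 28.8% of genes changed by the mean Dex effect and a median LFC of -0.02. A list of other apolipoproteins also held related genes of other kinds, among them *Lrg1*, *Pon1*, *Pon3*, *Apobr*, *Apoo* and *Apool*. Of its 16 genes tested, 5 rose and 5 fell (median LFC 0.01). *Saa4*, a serum amyloid protein of HDL, went from 1957 ± 192 normalized read counts in water-PBS to 9479 ± 1394 in water-Dex mice (SD, n = 3, LFC 2.28). On zinc water it went from 2965 ± 1091 to 7576 ± 1304 (LFC 1.35), and the mean LFC was 1.81 (SE 0.15). The interaction gave 0 calls among 17 genes of this list, so a difference between the waters was not shown. *Lrg1*, a secreted glycoprotein, rose by 0.52 (SE 0.14). *Apol9a* (-1.19) and *Apol9b* (-0.66) fell, but they are near-identical copies, so how reads were split between them is uncertain.

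Of 20 genes of lipoprotein assembly and secretion, 7 rose and 1 fell (median LFC 0.09). *Dgat2*, which makes triglyceride for secretion, rose by an LFC of 0.58 (SE 0.08) and *Sec24d*, a coat protein of vesicles leaving the endoplasmic reticulum, by 0.50 (SE 0.13). *Cideb*, which acts in VLDL lipidation, fell by 0.18 (SE 0.07, DESeq2 adjusted p = 0.046). *Mttp*, which loads lipid onto APOB, was at 0.07 and did not pass, like *Apob* itself.

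Of 10 genes of HDL metabolism, 5 rose and 1 fell (median LFC 0.21). *Mfsd2a*, a transporter of lysophospholipid, rose from 507 ± 102 normalized read counts in water-PBS to 2358 ± 370 in water-Dex mice (LFC 2.22) and from 303 ± 84.9 in zinc-PBS to 2877 ± 126 in zinc-Dex mice (LFC 3.25), with a mean LFC of 2.73 (SE 0.13). In this list too the interaction gave 0 calls of 10, so the Dex effect on *Mfsd2a* was not shown to differ between the waters. *Lipg*, an endothelial lipase that acts on HDL, rose by 1.55 (SE 0.14). The HDL receptor gene *Scarb1* rose by 0.53, and *Abcg1*, a cholesterol exporter, fell by 0.85 (SE 0.18).

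Of 16 genes of lipoprotein uptake and lipase control, 3 rose and 3 fell (median LFC 0.04). The lipase inhibitor gene *Angptl4* rose by an LFC of 1.40 (SE 0.34, DESeq2 adjusted p = 0.00022). *Gpihbp1*, which holds lipoprotein lipase on the capillary wall, rose by 0.58 (SE 0.08). *Angptl8*, whose product takes part in blocking the lipase, fell from 988 ± 755 normalized read counts in water-PBS to 79.2 ± 25.7 in water-Dex mice and from 559 ± 113 in zinc-PBS to 60.2 ± 1.4 in zinc-Dex mice, with a mean LFC of -3.43 (SE 0.35). *Apoa5* and *Angptl8* thus had LFCs of -1.12 and -3.43 in the same livers.

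Of 25 regulators of apolipoprotein genes, 7 rose and 9 fell (median LFC 0.00). *Cebpb* rose by an LFC of 2.15 (SE 0.15) and *Foxo1*, a transcription factor held back by insulin, by 1.34 (SE 0.06). *Nr1d1*, a repressor of the clock, fell by 1.82 (SE 0.13) and *Srebf1*, a driver of fatty acid synthesis, by 1.63 (SE 0.12). *Hnf4a*, a nuclear receptor that drives many apolipoprotein genes, rose by 0.24. Among 16 secreted hepatocyte proteins used for comparison, 7 rose and 0 fell (median LFC 0.09), with *Alb* at 0.30 (SE 0.06) and *Serpina1c* at 0.27 (SE 0.10).

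**Figure D5:**
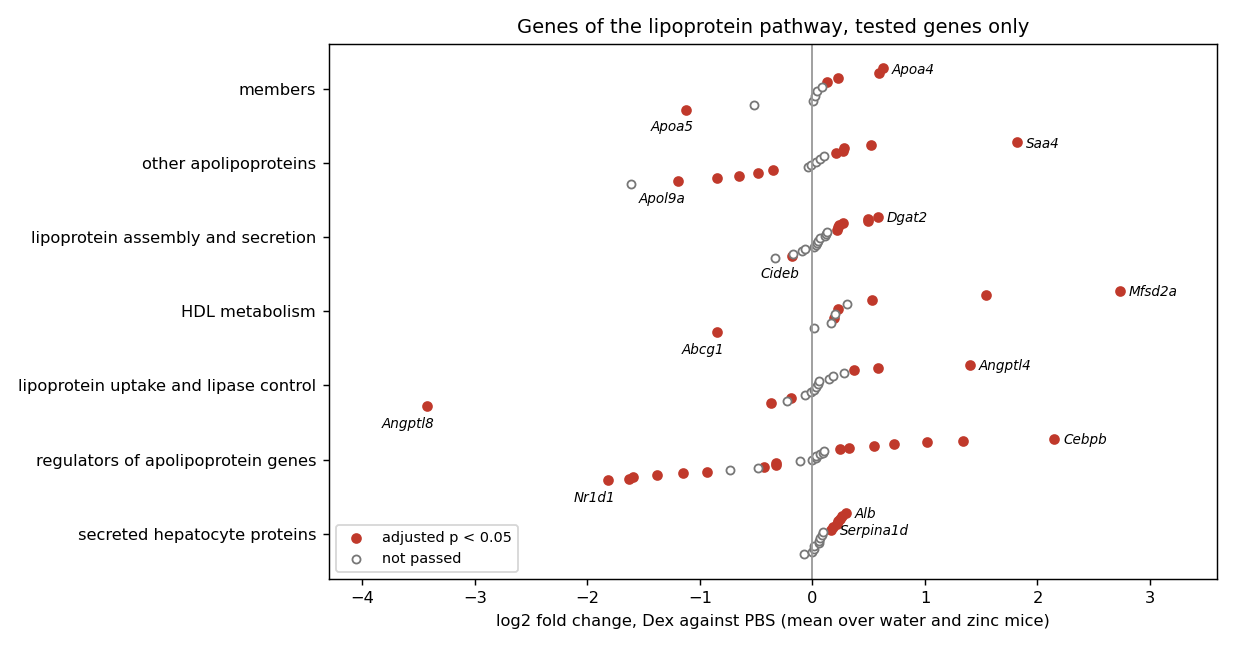
Mean Dex log2 fold change (horizontal axis) of each tested gene in 7 lists (rows). Filled points passed at an adjusted p under 0.05, and the members that passed with the highest and lowest change are named. The regulators spread from -1.82 (*Nr1d1*) to 2.15 (*Cebpb*), while the secreted hepatocyte proteins lie close to 0.

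With zinc averaged over both injections, against a background of 2.29% of genes, calls in the same lists were few. *Mia2* (LFC 0.17), which helps export large secreted particles, rose in assembly. *Lpl* (0.40), the gene of lipoprotein lipase, rose in uptake and lipase control. *Foxa3* (0.52) and *Nr1d1* (0.45) rose among the regulators, and *Nr0b2* (-1.17), a corepressor of bile acid synthesis, fell. The regulator *Srebf2*, a driver of cholesterol synthesis, which was named after its values were seen, rose by 0.28. The list of other apolipoproteins and related genes, HDL metabolism and the secreted proteins held 0 DESeq2 calls for this mean effect. HDL metabolism held 1 lower gene between PBS mice, *Mfsd2a* (LFC -0.74, adjusted p = 0.030), and 1 higher gene between Dex mice.

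Markers of other cells were read for the mean Dex effect, where 28.8% of genes tested changed, 14.7% higher and 14.2% lower. Of 10 Kupffer cell and macrophage markers 0 changed in DESeq2. Of 7 lymphocyte markers 5 were lower, with a summed level of 256 to 298 normalized read counts in PBS mice and 173 to 237 in Dex mice. Most of that sum was *Ptprc*, a gene of leukocytes at large, with 143 to 246. Each of the others had 15.3 or fewer in every mouse. Of 5 red blood cell genes 4 were higher, with sums of 778 to 1561 in PBS and 1212 to 2135 in Dex mice. Of 8 stellate cell markers 3 were higher and 1 lower, of 8 endothelial markers 2 were higher and 3 lower, and of 6 cholangiocyte markers 1 was lower. Of 7 gut epithelium markers tested 1 was lower, *Vil1* (LFC -1.23, SE 0.43, DESeq2 adjusted p = 0.017), and the median LFC was -1.75, while the abundant *Fabp2* was at -0.11 (adjusted p = 0.45). *Apoa4* was higher with Dex. Of 7 pancreas genes, *Prss2*, *Cpa1* and *Pnlip* were at 0 in every library. Their part in the apolipoprotein results was not tested.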

How the data were processed

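Liver RNA of 12 mice was sequenced as single-end stranded TruSeq libraries. The authors trimmed and mapped the reads to mm10 with hisat (HISAT2 2.0.4 in the submitters' processing notes, which also name Trimmomatic and SAMtools) and deposited raw read counts per Ensembl gene from featureCounts, without multimapping reads. The annotation release and strand setting of the counting are not given in the sources used here, so levels of genes that overlap another are uncertain. Symbols and coordinates came from GENCODE M21 (54809 of 54838 genes) and promoter sequences from RefSeq (GRCm38.p6), which held 8 of the 10 genes, all but *Apoc1* and *Apoc3*.

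The 10 genes, the gene lists and the tests were chosen with earlier results of these data known. Counts were fitted with DESeq2 1.42.0 in R 4.3.3 (Wald test, unshrunken fold changes, default filters), following the study's methods, in 1 fit of 12 libraries with 1 coefficient per group. 8 comparisons were made, and p-values were adjusted over all genes. TPM used all exonic bases. Named list genes were the 2 with the largest change in each direction among those that passed and averaged 50 normalized counts or more, and some of these are not reported here. Neighbours lay within 100 kb of a cluster gene with the same mean. Tools were tested on simulated data.

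Alternatives were edgeR 4.0.16 (quasi-likelihood, TMM), TMM factors in DESeq2, size factors without the 100 most abundant genes, at least 10 counts in at least 3 libraries, the replicate number as a block, the libraries compared alone, no independent filtering, no Cook's filter, the threshold of 0.8, and leaving out each library. Replicates differed by 5.7 to 18.8 times the counting noise (chi-square over its degrees of freedom), so no library was a copy. The depth of 9091152 to 12303527 counts per library gave at least 383 raw counts for each of these genes but *Apoc2*, where the spread between mice, not counting error, set the precision. Listed symbols *Apoc2l*, *Pcpe1* and *Tf* matched no row and were left out.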

Additional observations from a re-analysis of the deposited data

How the results depend on the processing

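Of 1570 values under an alternative, 1534 kept their side of the threshold and their direction, or stayed within the limits set for them, 33 lost a call, 3 gained one and 0 called values reversed, apart from the changed counts and levels given here. *Apoa1*, *Apoa5*, *Apoa4* and *Apoc3* kept the mean Dex call in 19 of 19 alternatives, *Apoa2* in 8 and *Apoa4* its mean zinc call in 13. No alternative scaled the counts to the library total. With the threshold of 0.8 the number of changed members was 1 in each of the 4 comparisons that hold Dex against PBS (water-Dex against water-PBS, zinc-Dex against zinc-PBS, zinc-Dex against water-PBS and the mean Dex effect) and 0 for the mean zinc effect. For the mean zinc effect edgeR gave 0 members, and leaving out a library gave 0 to 1. For zinc-PBS against water-PBS leaving out a library gave 0 to 1, and with the libraries compared alone zinc-Dex against water-Dex gave 1, *Apoa4* (LFC -0.44, DESeq2 adjusted p = 0.024).

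Replicate numbers did not pair the mice: of 18 pairs with the same number 1 correlated above 0.1 (range -0.204 to 0.191), and 3 of 12 libraries correlated best with their own number. With the replicate block the mean Dex effect gave 4 members, *Apoa2* being lost (adjusted p = 0.11), and the mean zinc effect 1. The block gave 3 members for water-Dex against water-PBS, 4 for zinc-Dex against zinc-PBS and 2 for zinc-Dex against water-PBS, *Apoa2* being lost in both of the latter (adjusted p = 0.093 and 0.089).

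Per protein-coding count the 10 genes took 4.07, 4.04 and 3.94% in water-PBS, zinc-PBS and water-Dex mice. By longest transcript, level per length of Apoc1 was 10801 TPM, level per length of Apoc3 was 3903 and level per length of Apom was 652. Depth limits *Apoc2* alone, at 12 raw counts or fewer.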
